A study of Mus musculus with 16 samples.

Results

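Leukaemia-propagating cells (LPC), the sorted cells that carry a leukaemia forward, were compared between 2 surface phenotypes, LSK and LK, after harvest from the central nervous system (CNS). The comparison rests on 8 bulk RNA libraries of 16 in all, 4 labelled CNS LSK and 4 labelled CNS LK, chosen by their labels alone. The other 8 libraries came from bone marrow (BM) and enter only where they are named. Both CNS groups carried the Kmt2a-AFF1 fusion and overexpressed the microRNA miR-128a, in mice, as a model of the pro-B leukaemia of infants. The sort for CNS LSK took lineage-negative cells positive for Sca1, cKit and IL7R. CNS LK cells, called LK/CLP in the labels, were sorted as lineage-negative and Sca1-negative cells with cKit, with no IL7R criterion given. Cells without the fusion or with normal miR-128a were not analysed here, so nothing below separates either of them from the sort. Strain, age, the promoters that drive the fusion and the microRNA, and any pooling of animals are not given in the sources used here. The titles number the libraries of each group from 1 to 4 without saying that they came from separate animals. The p-values therefore measure the spread between these libraries, which may be technical.

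KMT2A is a histone methyltransferase, and its leukaemic fusions join its chromatin-binding part to proteins such as AFF1, a subunit of the super elongation complex that releases RNA polymerase II from pausing. Leukaemias of this kind are known for early onset and for spread to the meninges. Sca1, encoded by Ly6a, marks haematopoietic stem cells and multipotent progenitors, cKit is the receptor for stem cell factor, and IL7R is the receptor chain for the main lymphoid growth cytokine. Cells that cycle switch on the replication genes first and the mitotic genes later. The late genes are held down in early phases by the DREAM complex and are turned on by B-Myb and FOXM1, and many of their promoters hold a cell cycle homology element (TTTGAA or TTTAAA) beside CCAAT boxes, the sites of NF-Y.

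The sorted surface proteins were checked first, at the level of RNA. Levels are given as CPM, counts scaled to the same total in each library, on library sizes scaled with the TMM method, and every difference is LSK minus LK on the log2 scale. Ly6a (ENSMUSG00000075602) was at 1.53, 2.00, 0.948 and 2.29 CPM in CNS LSK 1 to 4 and at 0.801, 0.516, 0.905 and 0.507 CPM in CNS LK 1 to 4. Every LSK library lay above every LK library, in the direction of the sort, although LSK 3 and LK 3 were close. The log2 difference was 1.32 ± 0.35 (SE; edgeR unadjusted p 0.0018, adjusted p 0.565). Kit, which both gates required, was at 136 ± 23.1 CPM in LSK and 132 ± 6.86 CPM in LK (SD, n = 4), a log2 difference of 0.04 ± 0.11. Il7r, named as a criterion for the LSK gate and not mentioned for the LK gate, was at 83.0 ± 7.57 and 84.3 ± 9.88 CPM. Its log2 difference was −0.02 ± 0.10. Il7r RNA thus did not differ beyond the spread between libraries, and whether LK cells were selected by IL7R is not given. Flt3, the receptor of early lymphoid progenitors, was at 12.8 ± 2.39 and 13.6 ± 1.97 CPM.

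The genes of the model did not differ beyond the spread between libraries. Kmt2a was at 223 ± 10.2 CPM in LSK and 227 ± 21.5 CPM in LK, with a log2 difference of −0.03 ± 0.09. Aff1 was at 239 ± 9.46 and 245 ± 12.03 CPM, with a log2 difference of −0.04 ± 0.08. Counts at these symbols mix the normal genes with any reads of the fusion, and the fusion's human or mouse origin is not given in the sources used here. The host genes of the miR-128 hairpins, R3hdm1 and Arpp21, differed by −0.07 ± 0.08 and −0.08 ± 0.10. They report the native loci and say nothing of the overexpressed copy.

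The labelled disease was then set against lineage genes, with levels per length (CPM per kb of exon). Olfactory and vomeronasal receptor genes, which blood cells are not known to use, served as a background: their median was 0.0612 CPM per kb and their 95th percentile 0.175. The B-lineage list was mixed. Of its 32 genes, 22 had a median over the 8 libraries above that 95th percentile and 10 did not. The B-lineage transcription factors Pax5 and Ebf1 were at 0.0882 and 0.0670 CPM per kb, and the surrogate light chain genes Igll1 and Vpreb1 at 0.0717 and 0.216. Cd79a, a chain of the B-cell receptor, reached 0.665, and Vpreb3, a partner of the surrogate light chain, 1.44. Far above were Pou2af1, a coactivator of B-cell transcription, at 18.9 CPM per kb, Cd72, a surface receptor of B cells, at 10.2, and Syk, a kinase of B-cell receptor signalling, at 3.10.

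Of the 31 genes of the Notch and T-lineage list, 25 lay above the same 95th percentile. The genes of the recombinase differed in level, with Rag1 at 42.9 CPM per kb and its partner Rag2 at 0.193. Dntt, which adds bases at the joints of receptor genes, was at 43.7 with a spread from 12.5 to 109. Notch1, the receptor that starts the T programme, was at 96.8 CPM per kb, and its target Tcf7, a T-lineage transcription factor, at 218. Il2ra, Thy1, Lck and Ptcra, which encode an early thymocyte marker, a T-cell surface protein, the T-cell kinase and the pre-T-cell receptor chain, were at 85.6, 108, 74.7 and 65.5 CPM per kb. The T-lineage factors Bcl11b and Gata3 were at 37.5 and 10.6. The CD3 chain genes Cd3e, Cd3g and Cd3d stayed low, at 0.0915, 0.166 and 0.364. Meis1 and Hoxa9, usual targets of KMT2A fusions, were at 0.0470 and 0.0768. The plot of lineage genes shows the same split in LSK and LK libraries. The labels call the disease pro-B leukaemia, so the cells are named here only by their gates.

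**Figure D1:**
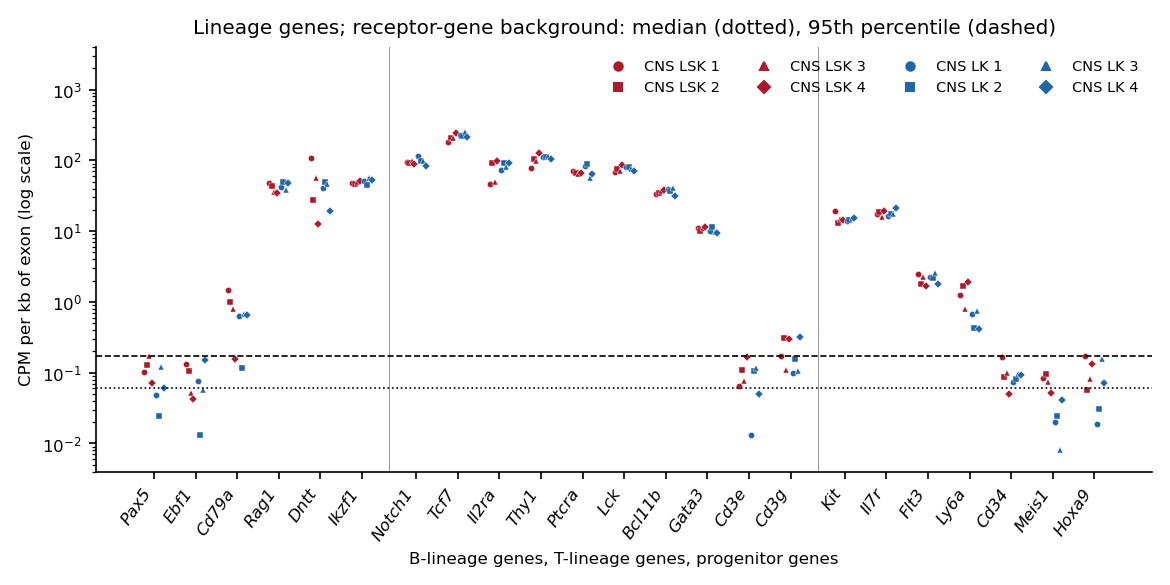
Level of B-lineage, T-lineage and progenitor genes in CPM per kb of exon (log axis), 1 point per CNS library, LSK in red and LK in blue; the dotted and dashed lines are the median and 95th percentile of the olfactory and vomeronasal receptor genes. Pax5 and Ebf1 lie near those lines in all 8 libraries, while Notch1, Tcf7, Thy1 and Lck lie far above them in both groups.

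Lineage genes were then compared between the gates. Of 29 tested members of the Notch and T-lineage list, 1 had an unadjusted edgeR p under 0.05, with LSK higher. Over all genes tested, 5.72% were higher and 1.58% lower at that p. The median log2 difference of the list was −0.08. Notch1 differed by −0.09 ± 0.10 and Tcf7 by −0.14 ± 0.10. The 25 tested B-lineage genes had a median of 0.02, and 0 of them had an unadjusted p under 0.05 in edgeR. Dntt varied widely within groups. It was at 250, 63.7, 130 and 28.7 CPM in LSK 1 to 4 and at 92.3, 113, 108 and 44.6 CPM in LK 1 to 4, so the groups overlapped fully.

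The libraries held 19.9 to 29.2 M counts, with 43.3% to 48.5% in protein-coding genes, and 19781 genes averaged 10 counts or more across the CNS libraries. At an adjusted p under 0.05, edgeR's quasi-likelihood test called none of them (0% called; smallest adjusted p 0.565). At an unadjusted p under 0.05 there were 1443 genes (7.29%), 1131 higher in LSK (5.72%) and 312 lower (1.58%). That split was 1300 against 151 with upper quartile scaling, 451 against 309 with the summed CPM of the receptor genes as a background covariate, and 337 against 106 when only genes with a mean of at least 50 counts were fitted. The adjusted count was 0 in limma and 9 in DESeq2, all higher in LSK. The 9 were Duxf3, Gm10184, Gm10259, Gm39465, Muc5ac, Nlgn2, Ptprm, Tshz2 and Ube2c. The adjusted count was 124 in edgeR when every gene with a count was kept (77 higher, 47 lower, of 52538 tested). LSK lay above LK without overlap in 531 genes (2.68%) and below it in 254 (1.28%). No gene below is therefore described as changed, and values stand beside these shares.

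In the fit of all these genes, the share of higher genes was largest where counts were few. Among the 4539 genes with a mean of 10 to 20 counts, the median log2 difference was 0.39, and 12.8% had an unadjusted p under 0.05 with LSK higher against 0.375% with LSK lower. Among the 11808 genes with a mean of at least 50 counts, the median was −0.04, and those shares were 2.02% and 2.3%. In counts, 239 of these were higher and 271 lower at that p. The same genes fitted alone had a median of 0.002 and, with 337 against 106, more higher than lower. Whether an excess of higher genes reached beyond weakly counted genes thus depended on the fit. The summed CPM of the receptor genes, taken as a measure of background, was 929, 1125, 938 and 743 in LSK 1 to 4 and 606, 395, 663 and 958 in LK 1 to 4 (exact two-sided permutation p 0.114, 0.286 adjusted over 5 library measures). Each LSK library lay above LK 1, 2 and 3, while LK 4 lay above all LSK libraries but LSK 2. Its part in the differences of weakly counted genes was not tested. The plot of differences by level shows the upward spread on the left, and the mitotic genes above 0 at every level.

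**Figure D2:**
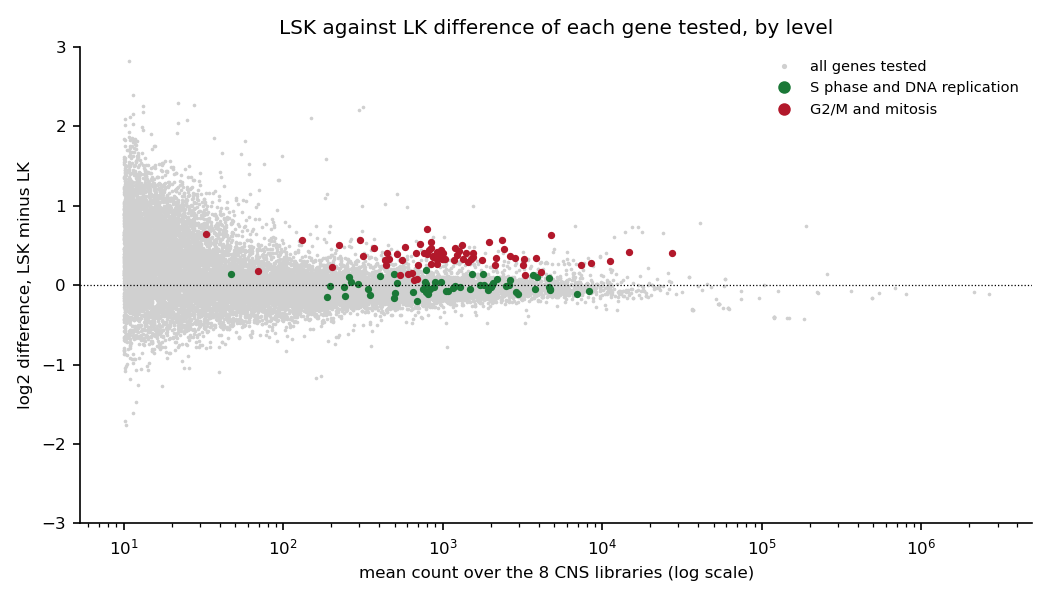
Log2 difference (LSK minus LK) of each of the 19781 genes tested against its mean count over the 8 CNS libraries (log axis), with 72 G2/M genes in red and 57 S phase genes in green; 1 gene lies outside the vertical range of 3. All 72 G2/M genes lie above 0, while the S phase genes lie on both sides of it.

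Mitotic genes lay on the LSK side of 0, although 0 of them were called after adjustment in edgeR. Of a list of 72 genes of G2 and mitosis, all 72 were tested and all 72 had a difference above 0, where 49.6% of all genes did. Of these, 58 had an unadjusted p under 0.05 with LSK higher, where 5.72% of all genes did, and 0 with LSK lower. The median log2 difference was 0.35 (range 0.06 to 0.71), against −0.002 over all genes tested. In 9 of them (Ube2c, Kif20a, Kpna2, Tubb4b, Arl6ip1, Aspm, Gtse1, Cdca8 and Fam83d) every LSK library lay above every LK library, where 2.68% of all genes did so. The summed level of the list was 8229, 5801, 8039 and 7292 CPM in LSK 1 to 4 and 5616, 5942, 5060 and 6253 CPM in LK 1 to 4. LSK 1, 3 and 4 stood above all LK libraries, while LSK 2 fell within their range. LSK 2 was also the library with the highest receptor-gene sum, and its part in the result was not tested. In bulk RNA, more cells in mitosis and more mitotic RNA per cell cannot be told apart.

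The promoters of the list are shown for the 4 genes with the smallest unadjusted p that had an entry in the RefSeq promoter table, since the data bear on genes that move together late in the cycle. Each line runs from 250 bases before the annotated start to 50 after it, 5′ to 3′ on the gene's strand, in mouse build GRCm38.p6. Capitals mark the homology element named above, in either form, and the CCAAT box, each on either strand. In Ube2c one CCAAT overlaps its own reverse complement. The regions are chr2:164769679-164769978 (plus strand) for Ube2c, chr11:106999476-106999775 (minus) for Kpna2, chr4:118437294-118437593 (minus) for Cdc20 and chr2:25224653-25224952 (minus) for Tubb4b.
Ube2c: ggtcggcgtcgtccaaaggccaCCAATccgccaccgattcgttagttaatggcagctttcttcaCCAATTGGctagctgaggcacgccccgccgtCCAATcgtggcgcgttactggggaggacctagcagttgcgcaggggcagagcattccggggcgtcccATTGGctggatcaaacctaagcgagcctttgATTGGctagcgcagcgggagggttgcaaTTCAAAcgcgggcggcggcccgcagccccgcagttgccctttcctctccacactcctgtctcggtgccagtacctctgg
Kpna2: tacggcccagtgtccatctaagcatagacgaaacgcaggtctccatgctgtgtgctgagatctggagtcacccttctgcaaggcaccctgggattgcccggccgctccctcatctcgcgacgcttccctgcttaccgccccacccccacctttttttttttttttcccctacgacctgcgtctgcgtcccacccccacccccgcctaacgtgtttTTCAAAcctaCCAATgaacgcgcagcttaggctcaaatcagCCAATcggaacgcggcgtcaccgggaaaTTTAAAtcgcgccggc
Cdc20: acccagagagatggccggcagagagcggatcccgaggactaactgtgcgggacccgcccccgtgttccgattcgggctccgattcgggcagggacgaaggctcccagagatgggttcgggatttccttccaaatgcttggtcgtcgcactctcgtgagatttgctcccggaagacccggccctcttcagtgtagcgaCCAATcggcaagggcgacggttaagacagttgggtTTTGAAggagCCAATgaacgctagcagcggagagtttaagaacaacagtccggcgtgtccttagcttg
Tubb4b: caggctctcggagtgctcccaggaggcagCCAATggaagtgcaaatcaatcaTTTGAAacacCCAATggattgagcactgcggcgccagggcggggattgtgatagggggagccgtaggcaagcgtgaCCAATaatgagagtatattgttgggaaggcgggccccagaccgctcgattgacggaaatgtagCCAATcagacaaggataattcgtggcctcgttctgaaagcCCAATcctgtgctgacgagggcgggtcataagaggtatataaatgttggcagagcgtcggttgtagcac

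All 4 windows held 1 TTTGAA match, at position −29 from the start in Ube2c, −35 in Kpna2, −18 in Cdc20 and −198 in Tubb4b, counted to the leftmost base. Kpna2 also held a TTTAAA, which is its own reverse complement. The number of CCAAT matches was 6 in Ube2c, 2 in Kpna2, 2 in Cdc20 and 5 in Tubb4b. Over 64 promoters of the 59 mitotic genes with an entry, 73.4% held TTTGAA or TTTAAA and 82.8% held CCAAT, with both kinds in 64.1%. Over all 32851 promoters of the table these shares were 27.6%, 37.4% and 10.7%. The 48 promoters of 43 S phase genes held both kinds in 12.5%, and the 68 promoters of 58 ribosomal protein genes in 1.47%. These are matches of letters in a window, not sites shown to be bound.

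Ube2c (ENSMUSG00000001403), the ubiquitin-conjugating enzyme of the anaphase-promoting complex, had the smallest p of all 19781 genes tested. It was at 46.1, 32.8, 49.7 and 43.7 CPM in LSK 1 to 4 and at 28.0, 27.9, 22.4 and 26.8 CPM in LK 1 to 4. LSK 2 was the lowest LSK library and still lay above every LK library. The log2 difference was 0.71 ± 0.12 (edgeR unadjusted p 3.7e-05, adjusted p 0.565), and without LSK 2 the adjusted p was 0.0479. Leaving out any other single library called 0 genes, with smallest edgeR adjusted p-values from 0.168 without LK 4 to 0.972 without LSK 3. Cdc20, the activator of the same complex, was at 36.8, 30.2, 40.2 and 37.7 CPM in LSK and at 24.8, 25.4, 19.8 and 30.7 CPM in LK. Its groups overlapped by LSK 2 and LK 4 alone, with a log2 difference of 0.52 ± 0.13. Of 7 genes of the complex, its targets and the spindle checkpoint, 3 had an unadjusted p under 0.05. The checkpoint gene Mad2l1 had the smallest difference of the whole list (0.06).

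The kinase that starts mitosis and its partners formed the next group. Cdk1 was at 53.4, 38.9, 56.3 and 48.5 CPM in LSK 1 to 4 and at 32.2, 40.03, 33.3 and 42.8 CPM in LK 1 to 4. Its partner cyclin B1, Ccnb1, was at 49.95, 34.1, 46.6 and 41.4 CPM in LSK and at 28.7, 30.0, 21.9 and 37.5 CPM in LK. In both genes LSK 1, 3 and 4 were above all LK libraries and LSK 2 was not. The log2 differences were 0.41 ± 0.12 and 0.54 ± 0.15, and 7 of the 9 genes of Cdk1, its cyclins and regulators had an unadjusted p under 0.05. Among 6 other mitotic kinases and activators, 4 did. These included Plk1 (0.41 ± 0.14), Aurka (0.49 ± 0.14), the kinases of the centrosome and spindle, and Tpx2 (0.46 ± 0.11), which activates Aurora A on microtubules. Tpx2 was at 92.8 CPM in LSK 2 and at 128 to 131 CPM in the other LSK libraries.

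Genes that build and move the spindle lay on the same side. All 7 kinesin genes had an unadjusted p under 0.05. Kif20a, a kinesin of the central spindle needed for cytokinesis, was at 43.2, 35.2, 46.7 and 43.5 CPM in LSK 1 to 4 and at 27.2, 31.9, 29.3 and 33.4 CPM in LK 1 to 4. Its log2 difference was 0.47 ± 0.10 (edgeR unadjusted p 0.000385, adjusted p 0.565). Of 18 genes of the spindle, microtubules and cytokinesis, 16 had an unadjusted p under 0.05, and 4 of them did not overlap between the groups. Aspm, which holds the spindle poles, differed by 0.56 ± 0.15. Tubb4b, a beta-tubulin, was at 117 to 149 CPM in LSK and at 103 to 115 CPM in LK and differed by 0.35 ± 0.09. Fam83d, which places the kinesin Kid on the spindle, was at 6.80 ± 1.39 CPM in LSK and 4.57 ± 0.14 CPM in LK, a log2 difference of 0.57 ± 0.16.

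At the chromosomes, the 4 genes of the chromosomal passenger complex all had an unadjusted p under 0.05, as did 8 of 12 centromere and kinetochore genes. Cenpf, a kinetochore protein of late G2, was at 312, 182, 287 and 219 CPM in LSK 1 to 4 and at 148, 174, 125 and 196 CPM in LK 1 to 4. Its log2 difference was 0.63 ± 0.16, and LSK 2 lay below LK 4. The outer kinetochore gene Spc24 differed by 0.07. All 9 genes of chromatin, nuclear envelope and import had an unadjusted p under 0.05. Mki67, the coat protein of mitotic chromosomes used as a proliferation marker, was at 1531, 1043, 1435 and 1336 CPM in LSK 1 to 4 and at 970, 1088, 853 and 1131 CPM in LK 1 to 4. The log2 difference was 0.40 ± 0.12. Top2a, the topoisomerase that untangles chromosomes, differed by 0.42 ± 0.12. The plot of mitotic genes by library shows LSK 2 next to the LK libraries in most of these genes.

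**Figure D3:**
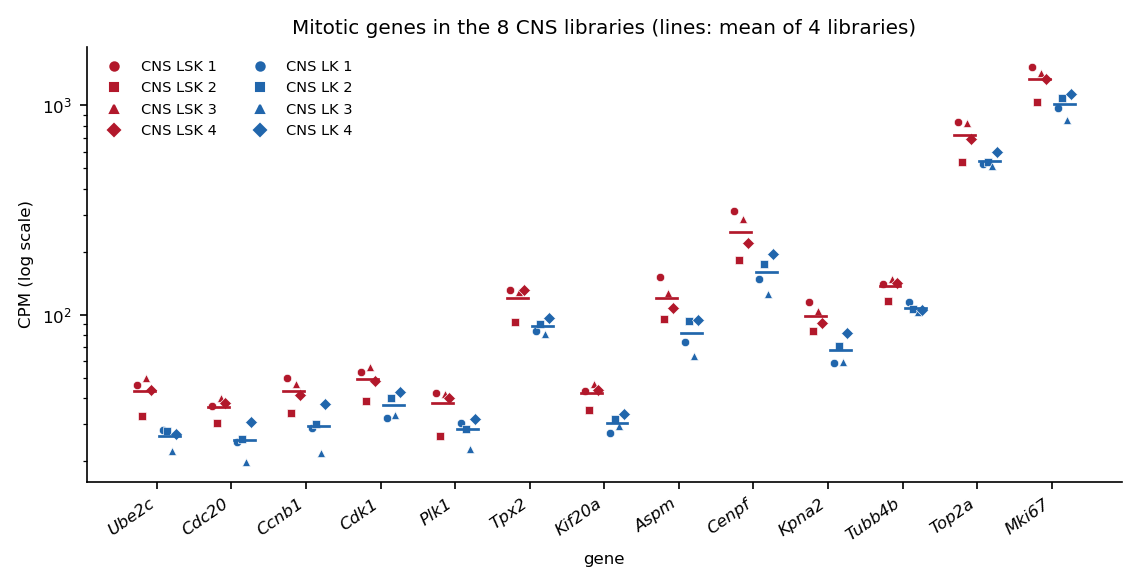
CPM (log axis) of 13 mitotic genes in each CNS library, LSK in red and LK in blue, with a line at the mean of 4 libraries. The LSK mean is above the LK mean for each gene, and the square for LSK 2 is the lowest LSK point.

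Kpna2, an importin that carries proteins into the nucleus, was at 115, 83.9, 104 and 91.5 CPM in LSK 1 to 4 and at 58.8, 71.2, 59.3 and 82.0 CPM in LK 1 to 4, without overlap. Its log2 difference was 0.54 ± 0.12. Gm10184 and Gm10259 differed by 0.60 ± 0.11 and 0.60 ± 0.11, with unadjusted edgeR p-values of 8.44e-05 and 0.000106. Both are near-copies of Kpna2: 99.0% of the 1988 bases of the Gm10184 transcript aligned to it at 99.9% identity, and all 1590 bases of Gm10259, a processed pseudogene, at 99.8%. Their counts stood in a narrow ratio to those of Kpna2 over the 8 libraries, 0.479 to 0.562 and 0.405 to 0.502. The counting could have split reads of 1 gene among the 3 identifiers, so they are uncertain as separate genes. Arhgap11a, a regulator of cytokinesis outside the list, differed by 0.44 ± 0.10.

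Replication genes lay on both sides of 0. Of 57 S phase genes, 0 had an unadjusted p under 0.05 in edgeR in either direction, and their median log2 difference was −0.02. DESeq2 and limma also gave 0, and fits without 1 library gave 0 to 4. The summed level was 4480, 3642, 4255 and 4608 CPM in LSK 1 to 4 and 4056, 4453, 4135 and 4490 CPM in LK 1 to 4. The groups overlapped, with LSK 2 again lowest. Cdc45, a subunit of the replicative helicase, differed by 0.19 ± 0.10. Uhrf1, which guides maintenance methylation behind the fork, was at 345 ± 32.1 CPM in LSK and 362 ± 28.7 CPM in LK.

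Replication-dependent histone genes, which are made during S phase and have no poly(A) tail, were counted in these total RNA libraries. Of 60 members, 56 were tested, 3 had 0 counts in all 8 libraries, and all 56 tested had a difference above 0, with a median of 0.27. At an unadjusted p under 0.05, 14 were higher in LSK. Of all genes 5.72% were higher at that p, and of those with a mean of at least 50 counts 2.02%. The 14 histone genes were 10 of 12 H2B genes, 3 H2A genes and 1 H4 gene. In 0 of them did the groups separate. Hist1h2bj was at 217, 182, 283 and 315 CPM in LSK 1 to 4 and at 197, 182, 178 and 173 CPM in LK 1 to 4, a log2 difference of 0.45 ± 0.14. The summed level was 9855, 8631, 12338 and 13504 CPM in LSK and 10585, 8733, 9191 and 8800 CPM in LK. LSK 3 and 4 were above all LK libraries, and LSK 1 and 2 were not. The count at an unadjusted p under 0.05 ran from 6 without LSK 3 or LSK 4 to 47 without LSK 2, and the median was 0.14 without LSK 4. It was 5 over 16 libraries and 31 with upper quartile scaling. Histone genes are near-identical copies, so single members are uncertain.

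**Figure D4:**
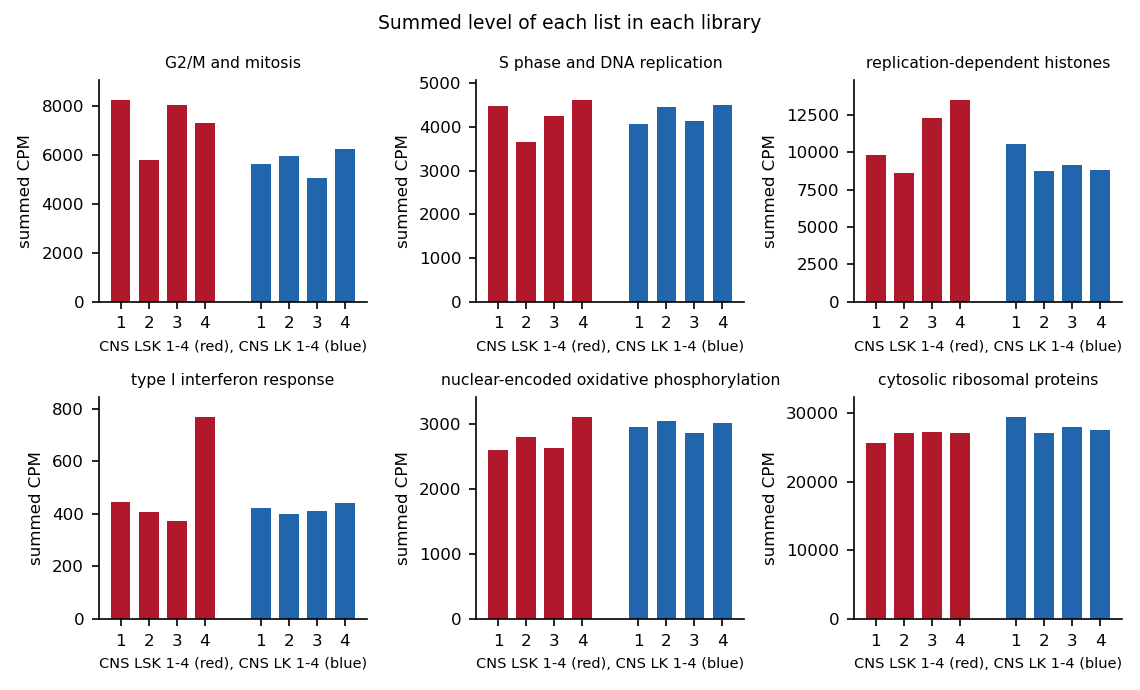
Summed CPM of 6 gene lists in each CNS library, LSK 1 to 4 in red and LK 1 to 4 in blue, on axes from 0. LSK 2 has the lowest mitotic, S phase and histone sums of the LSK libraries, LSK 4 alone has a high interferon sum, and the ribosomal sums of all LSK libraries but LSK 3 lie below those of LK.

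Interferon response genes were high in 1 LSK library. Of 50 members, 45 were tested and 39 were above 0, with a median log2 difference of 0.36. At an unadjusted p under 0.05, 9 were higher in LSK, where 5.72% of all genes were. The summed level was 446, 408, 371 and 767 CPM in LSK 1 to 4 and 423, 401, 412 and 443 CPM in LK 1 to 4. Without LSK 4 the median was −0.02, 21 genes were above 0 and 2 had an unadjusted p under 0.05 with LSK higher, while 16 did without LSK 3. Over all alternatives 2 to 18 did. Iigp1, a GTPase that attacks parasite vacuoles, was at 10.2, 5.48, 4.42 and 23.8 CPM in LSK and at 6.35, 3.66, 5.04 and 5.37 CPM in LK. Oasl2, of the antiviral oligoadenylate synthetase family, was at 8.49 CPM in LSK 4 and at 0.961 to 3.02 CPM elsewhere. Tgtp1 showed the same order, at 38.1 CPM in LSK 4 and 6.54 to 17.6 CPM elsewhere, but is nearly identical to Tgtp2 and uncertain as a single gene.

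Several of the largest differences followed single libraries or title numbers. Among the 11620 genes with a symbol and a mean of at least 50 counts, 24 were higher and 2 lower by 1 or more on the log2 scale, and 7 of the 24 did not overlap between the groups. Over all genes with such a mean, 0.517% were higher in LSK without overlap. The 24 were picked by the size of their difference, so the 2 shares are not alike. Gvin1, an interferon-inducible giant GTPase, led them at 14.6, 5.04, 5.05 and 69.8 CPM in LSK 1 to 4 against 3.28 to 7.85 CPM in LK. Its log2 difference of 2.24 ± 0.68 was 0.72 without LSK 4. Kif26b, a kinesin-like gene of Wnt5a signalling, was at 25.1, 2.84, 12.6 and 2.34 CPM in LSK 1 to 4 and at 5.71, 1.16, 2.41 and 1.01 CPM in LK 1 to 4. Each LSK library was above the LK library of its number, and the groups overlapped. With the number as a term in the edgeR fit, Kif26b was the 1 gene called (0.00506% of those tested, and 6.39% had an unadjusted p under 0.05). Jun, an AP-1 subunit, was at 12.96, 1.84, 0.993 and 0.0459 CPM in LSK and at 3.26, 0.473, 0.949 and 0.0676 CPM in LK, so the libraries numbered 1 were highest and those numbered 4 lowest in both groups. Its log2 difference of 1.82 ± 1.01 was −0.22 without LSK 1. Coro2a, an actin-binding protein, and Trnp1, a regulator of chromatin and of progenitor division in the brain, were the 2 lower genes. Trnp1 was at 1.31, 5.72, 8.48 and 2.34 CPM in LSK and at 19.96, 3.27, 14.6 and 2.97 CPM in LK.

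Mucin genes stood among the 12 genes with the smallest p and LSK higher. Muc2, the gel-forming mucin of the gut, was at 7.36, 7.61, 7.09 and 3.35 CPM in LSK 1 to 4 and at 2.24, 0.603, 2.72 and 2.64 CPM in LK 1 to 4. Muc5ac, that of the airway and stomach, was at 3.20, 6.77, 7.22 and 2.20 CPM in LSK and at 1.92, 1.29, 1.42 and 2.06 CPM in LK. The groups did not overlap in either, with log2 differences of 1.63 ± 0.35 and 1.53 ± 0.34. With the receptor-gene sum as a covariate these were 0.82 and 0.99. Mast4, a microtubule-associated kinase, was at 3.25 ± 0.73 CPM in LSK and 1.53 ± 0.31 CPM in LK, a log2 difference of 1.08 ± 0.24. Gm37985, a transcript without a known role, differed by 0.94 ± 0.22.

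Most genes of oxidative phosphorylation and of the cytosolic ribosome had differences slightly below 0, and 0 were called in edgeR. In this fit all genes with a mean of at least 50 counts had a median of −0.04. Of 70 nuclear-encoded genes of oxidative phosphorylation, all tested, 63 were below 0, with a median log2 difference of −0.11. At an unadjusted p under 0.05, 5 were lower in LSK and 0 were higher. Of all genes 1.58% were lower at that p, and of those with a mean of at least 50 counts 2.3%. The count of 5 was 12 without LSK 4 (median −0.17), 8 without LSK 2 and 3 without LSK 1. Over all alternatives it was 3 to 12. In 4 of the list (Ndufa13, Ndufb3, Ndufv1 and Sdhb) every LSK library lay below every LK library. Of all genes 1.28% did so, and of those with a mean of at least 50 counts 1.85%. Ndufb3, an accessory subunit of complex I, was at 8.84, 8.69, 9.21 and 8.40 CPM in LSK 1 to 4 and at 10.6, 11.4, 10.7 and 11.4 CPM in LK 1 to 4. Its log2 difference was −0.33 ± 0.11. Sdhb, the iron-sulphur subunit of complex II, differed by −0.30 ± 0.10 and Ndufa13, of complex I, by −0.26 ± 0.09. The summed level was 2601 to 3107 CPM in LSK and 2862 to 3054 CPM in LK, so the list overlapped between the groups, and upper quartile scaling gave a median of −0.07. The 13 genes of the mitochondrial genome had a median of −0.08, with 0 of 13 at an unadjusted p under 0.05 in edgeR.

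Of 79 cytosolic ribosomal protein genes, 65 were below 0, with a median of −0.08. In 9 every LSK library lay below every LK library, where 1.28% of all genes and 1.85% of those with a mean of at least 50 counts did so. In the reported fit 2 of the 79, Rpl13a and Rpl30, had an unadjusted p under 0.05 with LSK lower. At that p 1.58% of all genes were lower, and 2.3% of those with a mean of at least 50 counts. The count of 2 was 10 with the background covariate, 7 over 16 libraries, 6 in DESeq2, 4 in limma and 1 to 10 over all alternatives. Rpl13a, which also has a role in silencing inflammatory messages, was at 20.6, 16.1, 18.4 and 16.02 CPM in LSK 1 to 4 and at 23.01, 22.1, 20.7 and 26.2 CPM in LK 1 to 4, with a log2 difference of −0.37 ± 0.11. Rpl30 differed by −0.22 ± 0.10 and Rpl10 by −0.18 ± 0.09. The summed level was 25547 CPM in LSK 1 and 26994 to 27242 CPM in LSK 2 to 4, against 27122 to 29320 CPM in LK. Ribosomal protein genes have many processed copies, so single members are uncertain. With upper quartile scaling the median was −0.035, and without LK 1 it was −0.05. With a minimum mean of 50 it was −0.030, and 26 of 78 genes were above 0. The count at an unadjusted p under 0.05 was 5 without LK 2 and 1 without LSK 3 or LK 1.

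Among apoptosis genes, 2 of 10 tested BCL2 family members had an unadjusted p under 0.05, both with LSK lower and without overlap, where 1.58% of all genes were lower at that p and 1.28% lower without overlap. That count of 2 was 4 without LK 4 and 1 to 4 over all alternatives. Bid, which links death receptors to mitochondria, was at 24.4, 27.4, 25.0 and 29.7 CPM in LSK 1 to 4 and at 35.3, 36.4, 31.1 and 32.4 CPM in LK 1 to 4. Its log2 difference was −0.34 ± 0.09 (edgeR unadjusted p 0.00244, adjusted p 0.565). Bad, a sensitizer that binds BCL2 and BCL-XL, was at 5.31 ± 0.24 CPM in LSK and 7.20 ± 0.69 CPM in LK, a log2 difference of −0.44 ± 0.14. Bcl2 itself was at 31.0 CPM in LK 3 and at 10.5 to 16.8 CPM in the other 7 libraries, with a difference of −0.47 ± 0.27. Siva1, which encodes a binding partner of the CD27 receptor tail, was at 20.8 to 22.2 CPM in LSK and 24.3 to 28.8 CPM in LK, a difference of −0.29 ± 0.09.

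Other genes with LSK below LK were single genes of varied function. Vamp1, a SNARE protein of vesicle fusion, was at 21.5, 21.8, 19.9 and 17.7 CPM in LSK 1 to 4 and at 26.7, 25.3, 28.2 and 24.9 CPM in LK 1 to 4. It had the smallest p of the lower genes, with a log2 difference of −0.38 ± 0.10 (edgeR unadjusted p 0.00142, adjusted p 0.565). Borcs8, of the complex that places lysosomes, differed by −0.56 ± 0.15, and Pstpip2, an F-BAR protein that restrains inflammation in macrophages, by −0.64 ± 0.17. Necab1, a neuronal calcium-binding protein, differed by −0.29 ± 0.09. The same set held 2 similar zinc-finger-type genes, Gm14440 and Gm14288, at 7.25 ± 0.58 against 10.01 ± 1.36 CPM and 7.28 ± 0.57 against 9.95 ± 1.47 CPM. Their levels were close in each library, and they are uncertain as separate genes. The noncoding Gm28187 and the pseudogene Gm13316 differed by −0.45 ± 0.13 and −0.60 ± 0.18.

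Immediate early genes, the first to answer a growth or stress signal, did not move together. Of 25 tested, 5 had an unadjusted p under 0.05 with LSK higher and 1 with LSK lower, where 5.72% and 1.58% of all genes did. With the background covariate 2 were higher and 0 lower, and over all alternatives 1 to 8 were higher. The median of 0.09 was −0.01 without LSK 1. The 5 were Fos, Fosl2, Egr1, Egr2 and Klf6. Of these, Fos, Egr1 and Egr2 had under 1 CPM in the mean of either group. Klf6 was at 8.49, 5.08, 8.39 and 6.52 CPM in LSK 1 to 4 and at 6.78, 4.43, 5.52 and 4.56 CPM in LK 1 to 4, a difference of 0.42 ± 0.19. Klf10, a target of TGF-beta signalling, was the lower one, at 11.0 ± 0.82 CPM in LSK and 14.1 ± 0.85 CPM in LK without overlap. The stem and progenitor programme had 14 of 20 genes tested and a median of 0.45. All genes with a mean of 10 to 20 counts had a median of 0.39, and 12.8% of them were higher at an unadjusted p under 0.05. In this list 3 genes were, Meis1 and Tal1 among them, each under 1 CPM in the mean of either group. With a minimum mean of 50, the 4 members left had a median of −0.01 and 0 at that p. The median of the list was 0.19 without LSK 1, 0.30 without LK 2 and 0.13 with the receptor-gene sum as a covariate. The 10 members that were still tested over 16 libraries had a median of 0.16.

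Lists of stress and lipid genes gave little. Of 27 heat shock and chaperone genes, 22 ATF4 response genes and 27 genes of cholesterol synthesis, 0 had an unadjusted p under 0.05 in edgeR, and their medians were 0.01, 0.02 and 0.07. Among 26 fatty acid genes Scd2, a stearoyl-CoA desaturase, differed by −0.22 ± 0.09 (edgeR unadjusted p 0.0303). It was at 256, 295, 283 and 277 CPM in LSK 1 to 4 and at 354, 328, 338 and 275 CPM in LK 1 to 4, with LK 4 inside the LSK range. Glycolysis and hypoxia genes had a median of 0.02. Of 22 tested genes of homing and adhesion, 3 were higher and 1 lower in LSK at an unadjusted edgeR p under 0.05. Over all genes tested, 5.72% were higher and 1.58% lower at that p. With the background covariate both counts of the list were 0. In this list Itga4, which binds VCAM1, differed by −0.09 ± 0.15 and Selplg, the ligand of selectins, by −0.20 ± 0.14. In the plot of list differences the points of both the mitotic and the histone list lie wholly to the right of 0.

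**Figure D5:**
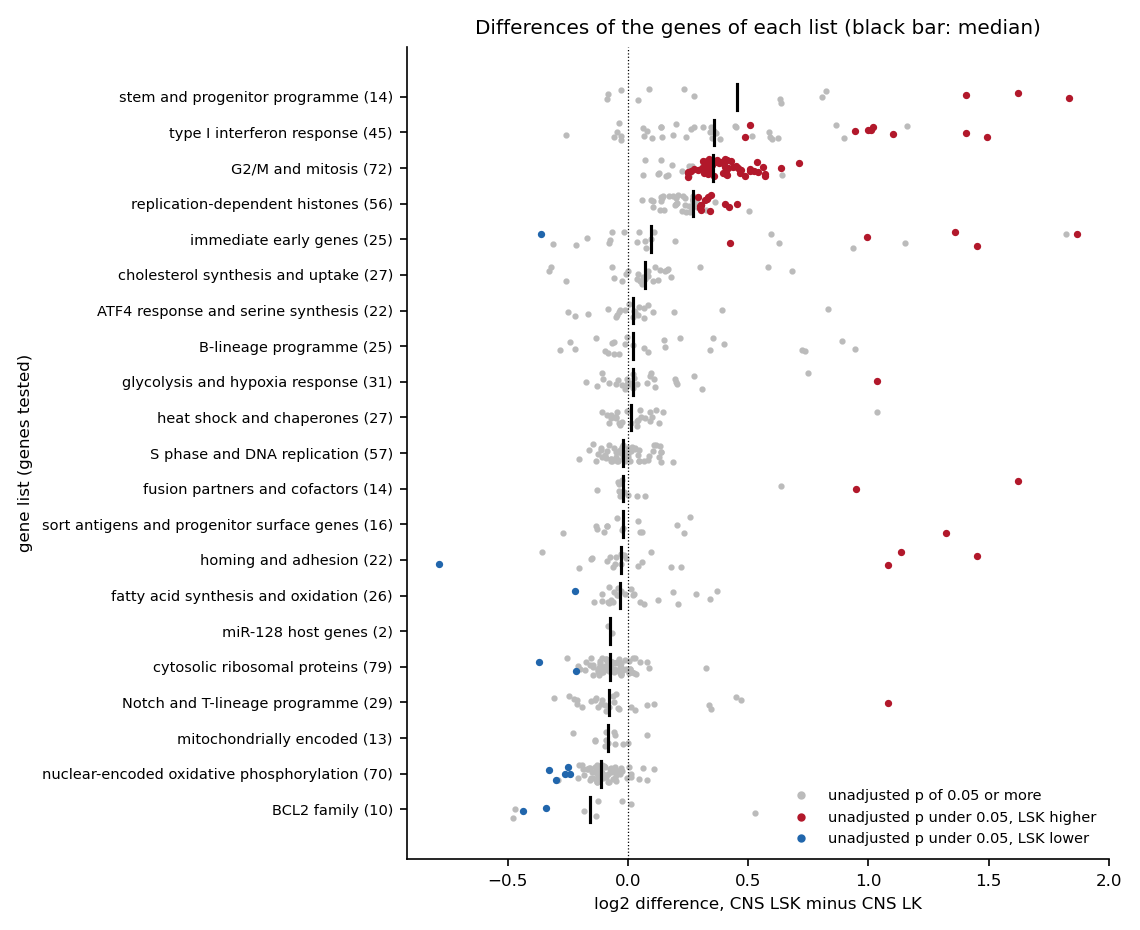
Log2 difference (LSK minus LK) of each tested gene of 21 lists, with a black bar at the median; coloured points have an unadjusted edgeR p under 0.05. The mitotic list has 58 such points of 72, all with LSK higher, the S phase list has 0 of 57 and the oxidative phosphorylation list has 5 of 70, all with LSK lower.

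Markers of other cells that a CNS sort could hold were counted in both groups, with sums that varied between the lists. Over 20 myeloid markers the summed level was 29.8, 35.1, 34.8 and 70.6 CPM in LSK 1 to 4 and 38.4, 30.2, 38.9 and 57.9 CPM in LK 1 to 4. Of these genes, Fcgr3, an immunoglobulin receptor, was at 33.3 CPM in LSK 4 and 29.9 CPM in LK 4, and at 2.08 to 5.71 CPM in the other 6 libraries. Microglia and brain macrophage markers summed to 8.89 to 16.9 CPM in LSK and 9.77 to 15.7 CPM in LK, and neural, glial and meningeal markers to 45.1 to 72.9 CPM and 49.3 to 52.3 CPM. Sums of erythroid markers ran from 118 to 294 CPM and from 125 to 204 CPM. Endothelial and pericyte markers summed to 103 to 117 CPM in LSK and 106 to 131 CPM in LK. Mature T and NK cell markers summed to 197 to 259 CPM in LSK and 219 to 265 CPM in LK. Trbc2, Trbc1 and Gzma had the highest medians of that list, at 175, 62.8 and 45.8 CPM per kb. Cd8b1, Cd4, Cd8a and Trac followed at 6.58, 1.92, 1.75 and 0.247. The remaining members, Cd3e, Cd3g, Nkg7, Gzmb, Klrb1c, Ncr1, Klrd1 and Prf1, had medians below the receptor-gene 95th percentile of 0.175. In these 2 lists 0 of 11 and 0 of 7 tested genes had an unadjusted p under 0.05 in edgeR. The high myeloid sum of LSK 4 stood beside its high interferon sum, but LK 4 had the second highest myeloid sum and an interferon sum of 443 CPM. Of 14 tested neural, glial and meningeal markers, 4 had an unadjusted p under 0.05 with LSK higher, with a median of 0.59, where 12.8% of the genes with a mean of 10 to 20 counts did. That count was 0, with 1 lower and a median of 0.24, with the background covariate, and 1 without LSK 2. In none of these lists was a marker at 0 counts in all 8 libraries. The part of such cells in the results was not tested.

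The same contrast was available in bone marrow, where LSK and LK libraries share the stems of their descriptions with the CNS libraries and are not independent of them. In a fit of all 16 libraries, the mitotic list had a median of 0.35 in the CNS and 0.42 in bone marrow. Ube2c differed by 0.73 ± 0.14 there, against 0.71 ± 0.12 in the CNS. The interaction, which asks whether the difference depends on the niche, called 0 of 18878 genes in edgeR (0%; smallest adjusted p 1.00), with 281 (1.49%) at an unadjusted p under 0.05 and 0 calls in DESeq2. It was fitted on group means with no term for the shared stems. Its p-values therefore do not take the pairing of CNS and bone marrow libraries by stem into account, and a fit with that pairing was not run. Over the 72 mitotic genes, 1 had an interaction p under 0.05 before adjustment. No part of the mitotic difference was thus shown to be particular to the CNS.

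For oxidative phosphorylation the medians were −0.11 in the CNS and 0.03 in bone marrow, and for ribosomal proteins −0.07 and 0.06. In these lists 2 of 70 and 0 of 79 genes had an unadjusted interaction p under 0.05, and 0 were called after adjustment in edgeR. Among genes with a symbol and a mean of at least 50 counts, the smallest interaction p was that of Eif2b1, a subunit of the exchange factor for the initiation factor eIF2. It was at 15.4, 16.97, 15.2 and 15.3 CPM in CNS LSK 1 to 4 and at 18.4, 20.01, 17.4 and 19.5 CPM in CNS LK 1 to 4. Its log2 difference was −0.26 ± 0.10 in the CNS and 0.13 ± 0.08 in bone marrow (edgeR interaction unadjusted p 0.00384, adjusted p 1.00). Nhlrc3 followed, at 0.02 ± 0.11 in the CNS and −0.42 ± 0.10 in bone marrow.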

How the data were processed

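The data were bulk total RNA libraries made with a stranded SMARTer Pico Input kit, per the labels' protocols. The submitters' processing notes name build GRCm39 and DESeq2; the aligner, the counter, the annotation and any use of molecular identifiers are not given in the sources used here. The authors deposited whole-number counts for 55414 gene identifiers, and although the table's name calls them normalised, the deposited counts summed to different totals and were used as raw counts. Columns were matched to samples by label, and 0 columns were left unused. Symbols were matched for 52081 identifiers; the other 3333 held 41.9% of the CNS counts and stayed in the library sizes. Replicate libraries differed by far more than sampling noise.

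Genes averaging 10 counts or more across the CNS libraries were scaled with TMM factors (0.946 to 1.05) and tested with edgeR 4.0.16 (R 4.3.3), quasi-likelihood, two-sided, 2 group means and no block, with Benjamini-Hochberg adjustment at 0.05 over all genes tested. The procedure was tested on simulated data. Alternatives were the title number as a block, other filters and scalings, DESeq2 1.42.0, limma 3.58.1 on log2(CPM + 1), a 16-library fit, a background covariate (1969 receptor genes), and leaving out each library. CPM per kb used exon lengths of an annotation of build GRCm38. Named genes were, among those averaging 50 counts or more, the 12 higher and 12 lower genes with the smallest p, up to 3 members and the most counted member of each list, a fixed set of 19 genes, calls with the block, and the 2 smallest interaction p-values. Of these 123 genes, 61 are named; other genes, and those with a log2 difference of 1 or more, were chosen after their values were seen. The gene lists and the comparison itself were chosen with earlier results of these data known. List entries H2ax, Ero1a and Atp5pb were not matched, and histones were matched under their older symbols. Of the 8 lists of other cells, those without printed sums had 0 to 1 genes at an unadjusted p under 0.05. Some genes of the lists are not reported here.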

Additional observations from a re-analysis of the deposited data

Results flagged for a closer look

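Each group of 4 libraries was examined for 1 library far from the other 3. This was done for the genes with printed values, the list sums and 5 library measures, 218 groups in all. Chance sets apart about 1 group in 20, or 10.9 of 218, and 16 were found.

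Among the mitotic genes, LSK 2 stood low for Tpx2 (92.8 CPM against 128 to 131 in the other LSK libraries) and Plk1 (26.3 against 40.1 to 42.5). LSK 4 stood high for Gvin1 (69.8 CPM against 5.04 to 14.6) and low for Muc2 (3.35 against 7.09 to 7.61). Its sum of myeloid markers was 70.6 CPM against 29.8 to 35.1.

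The libraries numbered 4 stood high for Fcgr3 in both groups, at 33.3 CPM in LSK 4 against 2.08 to 4.90 and at 29.9 CPM in LK 4 against 4.70 to 5.71. LSK 1 stood high for Jun (12.96 CPM against 0.0459 to 1.84), for Arpp21 (257 against 204 to 212) and so for the sum of the miR-128 host genes (355 against 291 to 298). It stood low for the sums of ribosomal protein genes (25547 CPM against 26994 to 27242) and of the BCL2 family (189 against 241 to 242).

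The ATF4 response sum was high in LSK 4 (871 CPM against 717 to 731) and in LK 2 (819 against 725 to 730). The cholesterol sum was high in LK 4 (562 CPM against 504 to 509), and Eif2b1 was high in LSK 2 (16.97 CPM against 15.2 to 15.4).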

How the results depend on the processing

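The count of called genes was 0 in the reported fit and stayed 0 with a minimum mean of 50, 2 other scalings, limma, 16 libraries, named identifiers only and the background covariate. It was 124 with every gene with a count, 9 in DESeq2 and 0 to 1 without 1 library. The median of the mitotic list ran from 0.29 to 0.46 over all alternatives. Its tested genes stayed above 0 except 1 without LSK 1 and 2 with the background covariate, which was chosen for the lists after seeing the data. The difference in total counts ran from −3.10 to 0.019 M without 1 library.

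With the replicate block, the title number as a term, 1 gene was called, Kif26b (log2 difference 1.87, edgeR adjusted p 0.0139). This count was 0 with a mean of at least 50, 2 in DESeq2, 0 with no replicate block and 0 to 15 without 1 number. Libraries of 1 number correlated over 0.1 in 1 of 4 numbers at a mean of at least 10 counts (−0.18 to 0.16; 3 of 8 libraries correlated best with their own number) and in 3 of 4 at 50 (0.045 to 0.33; 5 of 8). The labels do not say what the numbers mark, so the fit without them was kept. With the block the interaction count was 0, as in the other alternatives.

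Differences of several genes turned direction, over wide ranges for Jun and Fcgr3, and the cause was not tested. With every gene with a count, Kit was at −0.011 and Nhlrc3 at −0.030. With a minimum mean of 50, Il7r was at 0.019, Kmt2a at 0.019 and Aff1 at 0.0054; with upper quartile scaling they were at 0.014, 0.014 and 0.00054. With the background covariate, Kmt2a was at 0.072, Aff1 at 0.012, Arpp21 at 0.059, Ebf1 at −0.84, Mad2l1 at −0.043 and Nhlrc3 at −0.049. Without 1 library, the ranges were −0.079 to 0.11 for Kit, −0.070 to 0.063 for Il7r, −0.073 to 0.025 for Kmt2a, −0.27 to 0.72 for Dntt, −0.20 to 0.80 for Ebf1 and −0.16 to 0.0014 for Notch1. They were −0.029 to 0.20 for Mad2l1, −0.22 to 3.04 for Jun, −0.21 to 0.032 for Itga4, −1.94 to 1.00 for Fcgr3 and −0.015 to 0.059 for Nhlrc3. Depth limits genes under about 50 counts; molecular identifiers are not given, so counting error understates the error.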
